A study of Mus musculus with 4 samples.

Results

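The comparison set cultured Chrebp-KO hepatocytes against wild-type (WT) hepatocytes when both were kept in medium with fructose. Its members are all genes with a value, each described by the log2 level on the KO fructose array minus that on the WT fructose array. Of 22180 genes measured, 10688 lay above background on at least 1 of these 2 arrays and were compared. Primary hepatocytes are liver parenchymal cells freshly isolated and kept in culture for a short time, here from male mice of 2 months that were wild type or Chrebp-KO. They were held for 16 h in serum-free medium, with 25 mM fructose (the fructose groups) or without it (the control groups), which gives 4 groups of 1 array each: WT and KO without fructose, and WT and KO with it. Neither the extent of the deletion, nor whether it was confined to the liver, nor the number of animals or cultures behind an array is stated. Because each group is a single array, replicate error is unknown, so values are described by size and rank and none carries a test.

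ChREBP, encoded by Mlxipl, is a transcription factor of the basic helix-loop-helix leucine zipper type. It works as a dimer with MLX, senses sugar phosphates, and binds carbohydrate response elements, which are paired E-box-like motifs set a fixed distance apart. In liver it is known for switching on glycolytic, fructolytic and lipid-synthesis genes when carbohydrate is plentiful, and fructose, which enters the triose phosphate pool past the main control point of glycolysis, is a strong signal to it.

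In fructose medium 79 of the 10688 genes (0.739%) were at least 2-fold lower in KO and 58 (0.543%) at least 2-fold higher. At 1.5-fold the counts were 306 (2.86%) and 262 (2.45%), and at 3-fold 21 (0.196%) and 8 (0.0749%). The lower side therefore reached further, with a lowest difference of -3.78 (log2) against a highest of 2.34, while the median over all detected genes was 0.01. Of all detected genes 47.5% had a difference below 0 in fructose medium, and 52.0% in control medium. Counts of list members below or above 0 are to be read beside these shares. As a measure of scatter where no signal is present, 1105 genes of olfactory receptors, which hepatocytes are assumed not to use, had differences with an SD of 0.18 between the same 2 arrays, and 1 of them passed 2-fold. Over the detected genes the SD was 0.31. Background, 4.76 on the log2 scale, is the 95th percentile of the mean level of those receptor genes; where the dimmer array fell below it, a fold is given as "at least", measured to the background. Counts use the measured differences, those below background included; measured to the background, 72 of the 79 lower and 48 of the 58 higher genes pass 2-fold. The share of genes past 2-fold was 1.01% for genes with a mean level up to 6, 1.41% between 6 and 8, 1.48% between 8 and 10 and 0.988% above 10, so the called genes were not gathered among the dim ones.

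**Figure D1:**
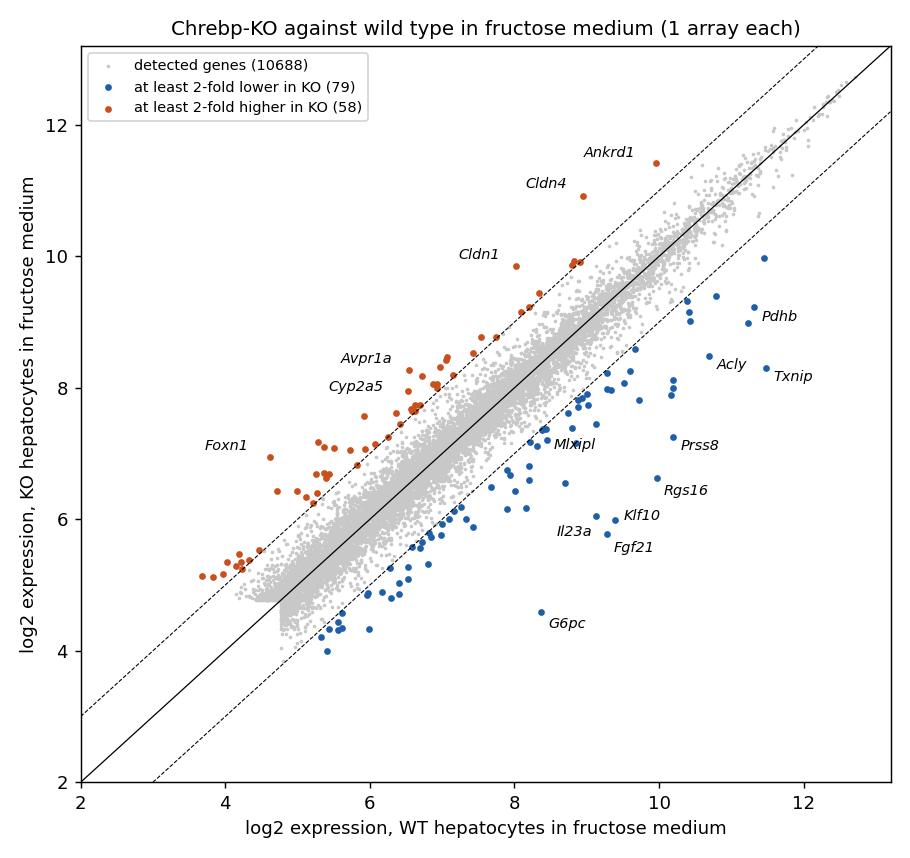
Log2 expression of the 10688 detected genes on the WT fructose array (x axis) and the KO fructose array (y axis), 1 array each; the solid line marks equal levels and the dashed lines 2-fold. The 79 blue points are at least 2-fold lower in KO and the 58 orange points at least 2-fold higher, and the lower side holds the points farthest from the line, with G6pc at -3.78.

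Levels of single genes are given below as log2 values in a fixed order: WT control, WT fructose, KO control, KO fructose. Mlxipl itself read 8.08, 8.43, 7.42 and 7.37. Both KO arrays lay below both WT arrays, by -0.66 in control and -1.06 in fructose medium, yet stayed far above background, so the array still measured transcript from this locus in the KO. The targeted gene was thus only rank 70 among the lowest differences, and whether its probes lie within the deleted part is unknown, so the reading is no check of the KO label by itself. Its dimer partner Mlx went the other way, with 8.24, 7.31, 8.21 and 8.12, and the WT fructose array stands apart as the low one. MondoA (Mlxip), the paralogue of ChREBP that shares the partner MLX, read 6.95, 6.36, 6.63 and 6.91, again lowest on the WT fructose array, though its difference of 0.55 stayed under 1.5-fold. The other detected members of the MLX-MAX network, Max, Mga, Mnt, Mxd1, Mxd4, Mxi1, Myc and Mycn, lay between -0.52 for Mga and 0.23 for Mycn. Among the 11 of 13 members that passed background, 1 was at least 2-fold lower (Mlxipl) and 0 higher.

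Known ChREBP targets had the lowest median of all lists. Of 33 listed genes 31 had a value and 28 passed background. In fructose medium 17 of these were at least 2-fold lower in KO and 1 higher, with a median difference of -1.40, beside 0.739% and 0.543% and a median of 0.01 over all genes. In control medium the same list had a median of -0.24, with 1 of 28 at least 2-fold lower. The genes were put in the list because they are known targets, and earlier results of these data were known when it was written, so its direction is no independent evidence.

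The promoters of a few of these genes are printed, where the window holds a match to the paired element or to an E-box alone. The sequences are from RefSeq (GRCm38.p6), 250 bases before the transcription start, 5′ to 3′ on the gene's strand, with matches in capitals. For Txnip (chr3:96557707-96557956, plus strand) and Pklr (chr3:89136373-89136622, plus strand) the capitals mark a match to a carbohydrate response element pattern, CANGNGNNNNNCNCGNG, in which N is any base. In the windows of Fgf21 (chr7:45615491-45615740, minus strand) and Arrdc4 (chr7:68749239-68749488, minus strand) they mark an E-box, CACGTG.
Txnip: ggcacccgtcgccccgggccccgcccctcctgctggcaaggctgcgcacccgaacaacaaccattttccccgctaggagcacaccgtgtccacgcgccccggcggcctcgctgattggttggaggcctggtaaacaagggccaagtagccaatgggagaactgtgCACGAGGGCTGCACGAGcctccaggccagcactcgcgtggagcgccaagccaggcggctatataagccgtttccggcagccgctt
Pklr: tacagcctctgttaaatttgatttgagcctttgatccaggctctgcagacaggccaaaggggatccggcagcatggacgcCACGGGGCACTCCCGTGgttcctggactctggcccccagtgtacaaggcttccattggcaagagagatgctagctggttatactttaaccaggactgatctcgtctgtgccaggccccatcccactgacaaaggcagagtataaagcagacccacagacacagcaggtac
Fgf21: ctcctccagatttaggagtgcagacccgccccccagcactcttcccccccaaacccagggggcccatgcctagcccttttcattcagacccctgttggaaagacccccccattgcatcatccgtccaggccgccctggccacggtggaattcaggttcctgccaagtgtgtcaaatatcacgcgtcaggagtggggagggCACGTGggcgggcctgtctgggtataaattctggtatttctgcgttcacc
Arrdc4: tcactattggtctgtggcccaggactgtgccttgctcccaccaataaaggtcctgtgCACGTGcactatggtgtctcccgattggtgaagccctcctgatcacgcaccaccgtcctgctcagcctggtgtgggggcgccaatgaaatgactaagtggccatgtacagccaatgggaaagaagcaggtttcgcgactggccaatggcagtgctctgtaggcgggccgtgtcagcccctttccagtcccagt
The Txnip match spans positions -85 to -69 from the start site and the Pklr match -170 to -154. RefSeq promoter windows, from 250 bases before the start to 50 after it, were found for 60 of the 79 lower genes, 79 windows in all, and searched on both strands. Of these, 2 windows (2.53%) held the carbohydrate response element pattern, against 2.22% of 10611 windows of all detected genes. The E-box was in 8 windows (10.1%), against 10.2%. Both shares lie near those of all genes. A match is only a match of letters, and the windows of G6pc and Rgs16, among the lowest genes, held neither pattern, which says nothing of binding elsewhere.

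Among the ChREBP targets are a pair of arrestin-like genes. Txnip, an arrestin-like protein that restrains glucose uptake and inhibits thioredoxin, read 7.60, 11.48, 7.04 and 8.30. Its paralogue Arrdc4, also a brake on glucose uptake, read 7.61, 9.72, 7.13 and 7.82. In both, the WT fructose array stands more than 2 log2 units above WT control, while the KO fructose array is much nearer to WT without fructose than to WT with it. KO lay 9.05-fold below WT for Txnip and 3.73-fold for Arrdc4.

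Genes of sugar uptake and handling differed between steps. Slc2a2, the hepatocyte transporter of glucose and fructose, read 7.66, 8.70, 7.53 and 6.55, and the KO fructose array is the lowest of the 4. Khk, which traps fructose as its phosphate, read 9.50, 10.30, 8.90 and 9.47 and was 1.77-fold lower in KO. Tkfc, which phosphorylates the glyceraldehyde released by aldolase, read 8.92, 10.20, 8.80 and 8.11, again lowest in KO with fructose, 4.24-fold below WT. The fructolysis list as a whole was split: of 9 detected members 2 were at least 2-fold lower, and the median was 0.04, while the mean, -0.46, has the opposite sign. Mpi, mannose phosphate isomerase, was 1.5-fold higher in KO, at 7.35, 6.07, 7.21 and 6.65.

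Further along glucose metabolism, genes of glucose release differed unequally. G6pc, which encodes the glucose-6-phosphatase enzyme that releases free glucose, had the lowest difference of all detected genes: it read 4.77, 8.37, 4.48 and 4.59, so WT with fructose was the 1 array clearly above background and KO was at least 12.2-fold lower. Its partner Slc37a4, which carries glucose 6-phosphate into the endoplasmic reticulum, was 1.73-fold lower, at 6.22, 7.14, 6.19 and 6.35. Fbp1, fructose bisphosphatase, was 1.64-fold lower and Gckr, the regulatory protein of glucokinase, 1.89-fold lower. By contrast Pck1 differed by 0.27, Pcx, pyruvate carboxylase, by 0.13 and Tat, tyrosine aminotransferase, by 0.02. Of 14 detected genes of gluconeogenesis and glucose output, 1 was at least 2-fold lower, 4 at least 1.5-fold lower and 0 higher, with a median of -0.02.

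Genes that make or use pyruvate differed one from another. Pklr, liver pyruvate kinase, read 11.11, 10.79, 10.44 and 9.39; both KO arrays lay below both WT arrays, and fructose medium showed the larger gap, -1.39 against -0.67. Pdhb, the beta subunit of the first enzyme of the pyruvate dehydrogenase complex, read 9.0, 11.31, 8.89 and 9.22, so WT with fructose stood 4.25-fold above KO while the other 3 arrays lay close together. Pdha1, the alpha subunit of that enzyme, differed by -0.01, Pkm, the other pyruvate kinase gene, by -0.23, and Ldha, lactate dehydrogenase A, by 0.02. Slc16a1, the monocarboxylate transporter for lactate and pyruvate, was 2.12-fold lower in KO (8.91, 9.67, 8.49 and 8.58), and Gpd2, the mitochondrial glycerol phosphate dehydrogenase, 2.21-fold lower (6.75, 7.90, 6.72 and 6.75). Of 16 detected genes of glycolysis and glucose sensing, 2 passed 1.5-fold, Pklr and Gckr, both lower, and the median was -0.04. Glycogen genes had a median of -0.31 and none past 1.5-fold: glycogen phosphorylase Pygl differed by -0.57 and glycogen synthase Gys2 by -0.46. Of the 11 detected, 8 were below 0, beside 47.5% of all detected genes, and 3 above it, among them Phka2 (0.49) and Gyg (0.42). The median was -0.21 without the dim filter, with the stricter filter and without the most different member, and the mean was -0.16.

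Many genes of fatty acid synthesis were lower in KO. Acly, which makes cytosolic acetyl-CoA from citrate, read 8.89, 10.69, 8.74 and 8.49. Acaca, the carboxylase that commits acetyl-CoA to fatty acids, read 6.34, 8.16, 6.37 and 6.17, and Fasn, the synthase, 7.37, 9.13, 7.16 and 7.45. In these 3 genes the WT fructose array stood alone above a cluster of the other 3, and KO lay 4.61-fold, 3.98-fold and 3.21-fold lower. Elovl6, which lengthens palmitate, was 2.15-fold lower, Thrsp, a regulator of lipogenesis, 2.25-fold, and Me1, malic enzyme, 2.66-fold, and the last 2 differed in control medium by -0.58 and -0.64. Scd1, the desaturase, differed by -0.42, Acacb, the mitochondrial isoform of the carboxylase, by -0.52, and Srebf1, which encodes the transcription factor SREBP1, was 2.02-fold lower (7.36, 8.38, 7.10 and 7.37). In all, 8 of 17 detected lipogenesis genes were at least 2-fold lower and 0 higher, with a median of -0.69; without the 9 that are also in the ChREBP target list, 2 of 8 were lower and the median was -0.27.

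Other routes that feed or use acetyl-CoA showed single lower genes. Aacs, acetoacetyl-CoA synthetase, read 6.67, 8.19, 6.62 and 6.6, with KO 3.01-fold lower. Mvd, which makes isopentenyl diphosphate, was 2.02-fold lower, but the 25 detected genes of cholesterol synthesis and its control had a median of -0.02 and Mvd was the 1 member past 1.5-fold. In the pentose phosphate pathway Rpia, ribose phosphate isomerase, was 2.17-fold lower at 5.39, 6.84, 5.27 and 5.72, whereas Taldo1, transaldolase, differed by -0.04.

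Genes of lipid export and storage were affected at single points. Mttp, which loads lipid onto apolipoprotein B, read 8.79, 9.52, 8.85 and 8.08, lowest in KO with fructose, and Tm6sf2, also involved in lipoprotein lipidation, was 1.97-fold lower. The apolipoprotein B gene itself differed by 0.21. Cidec, a lipid droplet fusion protein, was 1.87-fold lower at 6.06, 8.78, 5.92 and 7.88, although KO too was higher with fructose than without. The fatty acid binding protein genes Fabp5 and Fabp4 were 2.58-fold and 2.03-fold lower (Fabp5 by -1.86 on its brightest probe set against a mean of -1.37), and Mfsd2a, a transporter of lysophospholipids, 2.06-fold. In the opposite direction, Gpam, the mitochondrial acyltransferase that starts glycerolipid synthesis, read 9.19, 8.08, 9.75 and 9.16 and was 2.11-fold higher in KO, and Lpin2, a phosphatidate phosphatase, was 1.88-fold higher. The Lpin2 difference of 0.91 is a mean of probe sets, and its brightest probe set gave only 0.13. Gpd1, which supplies glycerol phosphate, was 1.64-fold lower, with -0.71 as the mean and -1.19 on its brightest probe set, so these genes did not go one way. The 21 detected genes of fatty acid oxidation and ketogenesis had a median of 0.04, with none past 1.5-fold.

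Secreted factors and regulators included several of the most displaced genes. Fgf21, a fasting and sugar-induced hormone of the liver, read 4.95, 9.28, 4.96 and 5.78: both control arrays lay near background, WT with fructose was far above, and KO with fructose was 11.3-fold below WT. Angptl8, an inhibitor of lipoprotein lipase, read 8.70, 11.23, 8.18 and 8.99. Klf10, a zinc-finger transcription factor, read 6.06, 9.39, 5.37 and 5.99, and Rgs16, which shortens signalling of G-protein-coupled receptors, read 6.82, 9.97, 5.77 and 6.62. For both, the KO fructose array lay slightly below WT without fructose. Rgs16 was also at least 2-fold lower in KO in control medium (-1.05). Among other family members, 3 more RGS genes passed background, and none differed by as much as 1.5-fold. Klf15, a Krüppel-like factor of the fasted state, was opposite to Klf10, with 5.43, 4.02, 6.08 and 5.35 and at least 1.51-fold higher in KO. Il23a, the p19 subunit of interleukin 23, read 3.76, 9.13, 4.07 and 6.05, below background on both control arrays. Of 23 detected immediate early genes 2 were at least 2-fold lower, Klf10 and Nr4a2, an orphan nuclear receptor (5.12, 5.97, 5.05 and 4.88), while its relative Nr4a1 was 1.52-fold higher.

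Several membrane, channel and protease genes were among the lowest. Prss8, the membrane protease prostasin, read 6.97, 10.20, 6.45 and 7.25, and Scnn1a, the alpha subunit of the epithelial sodium channel that prostasin is known to activate, read 5.48, 7.89, 5.28 and 6.16. Furin, a proprotein convertase that also cleaves that channel, read 10.27, 11.46, 10.19 and 9.98. In all 3 the WT fructose array was the highest and KO lay 7.68-fold, 3.33-fold and 2.78-fold lower. Slc25a47, a mitochondrial carrier found mainly in liver, read 6.78, 10.16, 6.17 and 7.90, Slc25a44, the mitochondrial carrier of branched-chain amino acids, was 2.53-fold lower, and Slc17a4, of the phosphate cotransporter family, 2.92-fold lower. The other 19 detected mitochondrial carriers of the list were within 2-fold. Cyp4f15, a fatty acid hydroxylase of the cytochrome P450 superfamily, read 5.40, 8.85, 4.72 and 7.17; it was higher with fructose in both genotypes, and 3.21-fold lower in KO. Man2a2, a Golgi mannosidase of N-glycan maturation, was 2.66-fold lower, Ifi30, a lysosomal thiol reductase, 4.58-fold lower, and Fes, a tyrosine kinase gene, 2.91-fold lower.

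**Figure D2:**
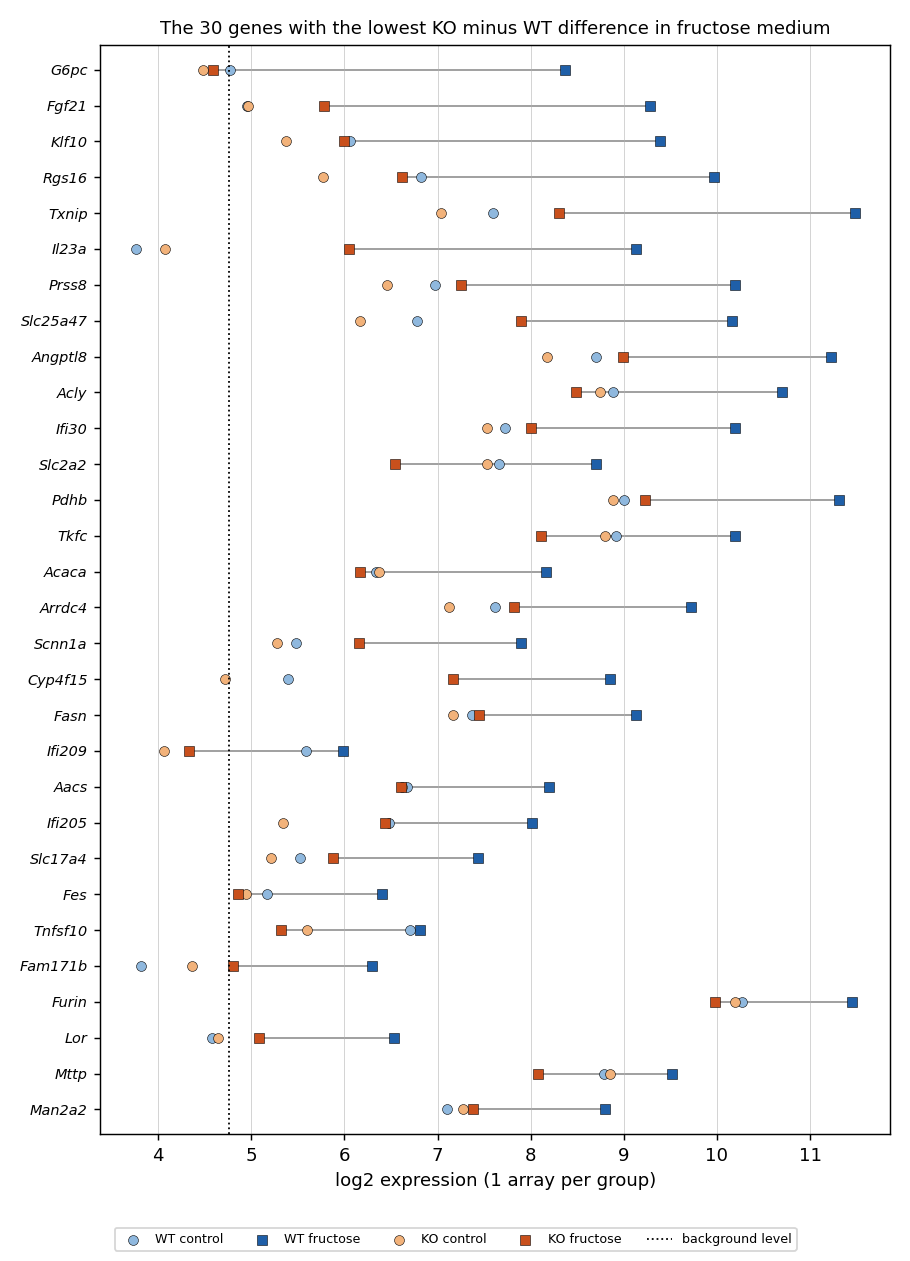
Log2 expression (x axis) on each of the 4 arrays for the 30 genes with the lowest KO minus WT difference in fructose medium, from G6pc (-3.78) at the top to Man2a2 (-1.41); circles are control and squares fructose medium, blue WT and orange KO, grey bars join the 2 fructose arrays and the dotted line is the background of 4.76. In most rows the dark blue square stands alone to the right, while in Ifi209 and Tnfsf10 both WT points lie to the right of both KO points.

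Most genes of protein folding in the endoplasmic reticulum (ER) read slightly lower in KO. Among 20 detected ER chaperones and folding enzymes 19 were below 0, beside 47.5% of all detected genes. The median of the 20 was -0.31, but 0 of them passed 2-fold and 4 passed 1.5-fold. In control medium the median was 0.04. Dnajb11, a co-chaperone of BiP, read 7.95, 9.54, 7.69 and 8.65, and Ero1b, an oxidase for disulfide formation, 6.59, 8.81, 6.43 and 7.96. In both, fructose arrays of either genotype lay above their controls, and KO with fructose took an intermediate place. ER-associated degradation had 2 of 18 detected members at least 2-fold lower and 0 higher, with a median of -0.28: Sel1l, the scaffold of the HRD1 ligase, read 8.05, 10.38, 8.13 and 9.32, and Derl3, a derlin, 4.0, 10.42, 3.99 and 9.16. Derl3 lay far above its controls with fructose in both genotypes and was 2.39-fold lower in KO.

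The Derl3 promoter window holds both an E-box and a match to the ER stress response element pattern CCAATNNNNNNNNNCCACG, to which ATF6 and NF-Y bind, read here on the opposite strand. It is printed because it was the 1 window of 79 from lower genes with that pattern (1.27%), against 18 of 10611 windows of all detected genes (0.17%). A share that rests on 1 window is no measure of enrichment. The coordinates are chr10:75893148-75893397, plus strand, RefSeq GRCm38.p6, and capitals mark the E-box (positions -168 to -163) and then the ER stress element (-156 to -138).
Derl3: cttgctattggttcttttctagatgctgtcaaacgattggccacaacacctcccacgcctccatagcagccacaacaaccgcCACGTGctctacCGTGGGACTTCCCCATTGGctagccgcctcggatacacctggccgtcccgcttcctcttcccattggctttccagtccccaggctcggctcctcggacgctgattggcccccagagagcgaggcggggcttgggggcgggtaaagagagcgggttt

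Among sensors and factors of the unfolded protein response, 1 of 12 detected was at least 2-fold lower: Wfs1, the wolframin gene of the ER membrane, read 7.18, 9.28, 7.30 and 7.98 and was 2.47-fold lower in KO. Ern1, the stress sensor IRE1, was 1.84-fold lower, Bhlha15 (MIST1), a factor of secretory cells, 1.90-fold, and Creb3l3, an ER-bound liver transcription factor, 1.85-fold. Atf4, Xbp1 and Atf6 differed by -0.22, -0.11 and -0.35. In the integrated stress response list 2 of 23 detected members were at least 2-fold lower, Fgf21 and Chac1, a glutathione-degrading enzyme at 7.13, 9.33, 6.84 and 7.97. Members did not go one way there. Ppp1r15a, which helps reverse the block of translation, was 1.65-fold lower, whereas Nupr1, a stress-induced nuclear protein, was 1.52-fold higher in KO, and Ddit3 (CHOP) differed by -0.40. ER translocation and vesicle transport (median -0.14, 26 of 32 below 0) and N-glycosylation (median -0.12, 19 of 29 below 0) had 0 members past 2-fold. Over all detected genes 47.5% were below 0.

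Markers of macrophages and endothelium and interferon-stimulated genes had medians below 0 in fructose medium, and in control medium too. Over all detected genes 47.5% were below 0 in fructose medium and 52.0% in control medium. Of 12 detected macrophage markers out of 15, 9 were below 0, 2 were at least 2-fold lower and the median was -0.51, against -0.36 in control medium. Timd4, a receptor of resident liver macrophages, read 5.94, 6.28, 5.13 and 5.26, Marco, a scavenger receptor, 6.65, 6.85, 5.93 and 6.01, and Fcgr1, an Fc receptor, 6.95, 7.16, 5.70 and 6.12. In these 3 genes both KO arrays lay below both WT arrays. Not every marker followed: Csf1r differed by -0.07, Cd68 by 0.44, and Vsig4, C1qc and Cd163 were below background on both fructose arrays. The summed linear level of the 15 markers was 4894, 4861, 4373 and 5272, most of it from Cd14 and Cd68, so on that scale KO with fructose was the highest array and the sum and the median differ in direction. Endothelial markers had a median of -0.33 over 10 of 14, with 9 below 0 and 0 past 2-fold, and a median of -0.47 in control medium; Lyve1 of sinusoidal endothelium read 7.96, 7.85, 7.50 and 7.23 and Cdh5 8.41, 8.13, 7.73 and 7.78. Their summed linear level was 1193, 1075, 864 and 826, and Stab2, Clec4g, Tek and Erg were below background on both fructose arrays. In such bulk samples, fewer cells of a type and less RNA per cell cannot be told apart, and the part of these markers in the results below was not tested.

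Of 26 detected interferon-stimulated genes, 3 were at least 2-fold lower in KO with fructose, 20 were below 0, and the median was -0.28; in control medium the median was -0.57, farther from 0. Tnfsf10, the death ligand TRAIL, read 6.71, 6.81, 5.60 and 5.32, Cd274, which encodes PD-L1, 8.27, 9.28, 6.99 and 8.22, and Ifit2 6.92, 6.71, 5.85 and 5.65. Ifi209 and Ifi205, neighbouring interferon-inducible genes whose near-identical copies can share probes, read 5.59, 5.99, 4.06 and 4.34 and 6.47, 8.01, 5.34 and 6.44. In each of these 5 the KO array lay below the WT array of the same medium by more than 2-fold, measured values below background included. The highest member of the list differed by 0.21 in fructose medium. Ifi27l2b, which like Ifi209 and Ifi205 is outside the list, was 2.57-fold higher in KO with fructose and differed by -0.23 in control medium. Inflammatory mediators had a median of -0.25 (control medium -0.42), with 3 of 23 at least 2-fold lower and 0 higher: Il23a, the chemokine Cxcl2 (4.90, 7.10, 4.28 and 6.0) and Nos2, inducible nitric oxide synthase (5.17, 8.93, 4.39 and 7.84). Nos2 was higher with fructose in both genotypes and 2.12-fold lower in KO. Of other cell types, 0 of 6 measured neutrophil markers, 0 of 3 B cell markers and 1 of 10 T and NK cell markers passed background. Stellate cell markers had 4 of 11 above background, with Dcn, decorin, at 6.49, 6.32, 5.99 and 6.10, and they differed between KO and WT by -0.22 to 0.36. Among cholangiocyte markers 2 of 7 passed, Sox9 (9.82, 10.30, 9.39 and 10.21) and Cldn3 (10.97, 10.07, 10.84 and 10.68), both well above background.

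The cells themselves read as hepatocytes on every array. All 11 hepatocyte markers passed background and differed by -0.13 to 0.24 between KO and WT in fructose medium, with a median of 0.05. Alb read 12.63, 12.58, 12.63 and 12.66 and Hnf4a 9.44, 8.69, 9.43 and 8.93. Among 15 detected hepatocyte transcription factors, Foxa3 was the 1 past 1.5-fold, 1.67-fold lower. The median of these factors was -0.15, with 11 of 15 below 0. In control medium it was -0.11, with 14 of 16 below 0. Lists with medians close to that of all genes and no member past 1.5-fold included complement and coagulation (25 detected, median 0.03), amino acid catabolism and the urea cycle (26, -0.02), oxidative phosphorylation (22, 0.10), ribosomal proteins (17, 0.09), the proteasome (26, 0.06) and p53 targets (12, 0.08). In that order, the members above 0 were 15, 12, 19, 10, 20 and 9. Most members of oxidative phosphorylation and the proteasome thus lay above 0, by small amounts.

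On the higher side, several of the highest differences were those of epithelial junction and barrier genes. The lists of such genes were written with earlier results of these data known. Foxn1, a transcription factor of skin and thymus epithelium, had the highest difference, with 4.96, 4.62, 5.14 and 6.95: KO with fructose was the 1 array well above background, at least 4.57-fold above WT. Cldn4 and Cldn1, tight junction claudins, read 9.82, 8.95, 10.12 and 10.92 and 9.13, 8.02, 9.69 and 9.85. In both, WT with fructose was the lowest of the 4 arrays and KO with fructose the highest, 3.91-fold and 3.54-fold apart. All 14 detected tight junction genes were above 0, 2 of them past 2-fold, with a median of 0.17. Cgn, cingulin, was 1.74-fold higher. Ivl, involucrin of the cornified envelope, read 5.90, 5.28, 6.28 and 7.18, Tgm1, the transglutaminase that crosslinks it, 8.72, 8.21, 8.73 and 9.23, and Exph5, a Rab27 effector, 7.05, 5.93, 7.85 and 7.58. In the squamous list 17 of 32 measured genes passed background, of which 4 were at least 2-fold higher and 2 lower; the lower ones were Lor, loricrin (4.58, 6.53, 4.64 and 5.08), and Aloxe3, an epidermal lipoxygenase (5.11, 8.32, 5.26 and 7.12), so the list did not go one way. Its median was 0.31 over the genes that passed and 0.071 over all 32.

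Most genes of the cytoskeleton list read higher in KO, by smaller amounts. Of 29 detected genes in the cytoskeleton, annexin and S100 list, 25 were above 0, 4 at least 2-fold higher and 0 lower, with a median of 0.28 (0.14 in control medium). Vim, vimentin, read 9.68, 8.83, 9.96 and 9.92, Anxa3, annexin A3, 9.26, 7.43, 9.58 and 8.52, and Tpm2, a tropomyosin, 6.19, 4.19, 6.92 and 5.47. These 3 share a low reading on the WT fructose array. For Tpm2 and S100a6, a calcium-binding protein, that reading is below background, so they were at least 1.63-fold and at least 1.70-fold higher, and 2 of the 4 pass 2-fold when measured to the background. Tubb2a, a beta tubulin, was 1.91-fold lower and is the 1 of 4 members below 0 that passed 1.5-fold. Of 19 detected YAP targets 3 were at least 2-fold higher and 0 lower, with a median of 0.19: Ankrd1, a stretch-responsive nuclear protein, read 10.37, 9.95, 10.78 and 11.41, F3, tissue factor, 9.16, 8.79, 9.38 and 9.86, and Crim1 7.93, 6.69, 8.22 and 7.74. Ccn2 was 1.84-fold higher (0.88, and 1.49 on its brightest probe set), whereas Ccn1 differed by 0.19. Gprc5a, an orphan receptor, was 2.36-fold higher and Muc13, a transmembrane mucin, 2.63-fold, at 4.73, 7.07, 4.90 and 8.46.

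Of 22 detected genes in the list of growth factors and EGF receptor ligands, 2 were at least 2-fold higher, 0 lower and 8 below 0, with a median of 0.18. The list also holds receptors, Avpr1a among them. It was written with earlier results of these data known, so its counts are no independent evidence. Avpr1a, the hepatic vasopressin receptor, read 6.47, 6.54, 6.84 and 8.27, and Kitl, stem cell factor, 5.66, 5.51, 5.80 and 7.08; in both the other 3 arrays were close together and KO with fructose stood above. Erbb3, a receptor of the EGF family, was 1.86-fold higher (8.76, 6.97, 8.70 and 7.87), Fgfr4, the hepatocyte receptor of FGF15, 2.04-fold, and Mapk4, an atypical MAP kinase, 2.68-fold. Hbegf and Tgfa, ligands of the EGF receptor, were 1.53-fold and 1.52-fold higher, whereas Bmp4, a bone morphogenetic protein, was 1.57-fold lower.

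Some enzymes, lipid genes and genes of other kinds were higher in KO. Cyp2a5 and Cyp2a4, coumarin and steroid hydroxylases with near-identical sequences that can share probes, read 7.49, 6.53, 8.13 and 7.96 and 7.57, 6.96, 8.26 and 8.32. Of 21 detected cytochrome P450 genes of families 1 to 3, these 2 were at least 2-fold higher and 0 lower, with a median of 0.14. Cyp4a14, a PPARA-driven fatty acid hydroxylase, read 4.53, 4.99, 5.73 and 6.43 and Vnn1, a pantetheinase, 8.52, 6.58, 8.82 and 7.65. PPARA targets as a list had a median of 0.14 with 2 of 16 at least 2-fold higher and 1, Fgf21, at least 2-fold lower; its mean, -0.059, has the opposite sign. Smpd3, neutral sphingomyelinase 2, read 8.25, 5.72, 7.97 and 7.05, Osbpl3, an oxysterol-binding protein, 8.16, 4.71, 8.34 and 6.43, and Ifi27l2b 10.33, 7.06, 10.10 and 8.42. For these 3 both control arrays were high and the WT fructose array was the lowest. Phase II conjugation genes had a median of 0.16 with Ugt2b36, a glucuronosyltransferase, 1.82-fold higher. E2f8, a cell cycle factor, was 2.34-fold higher at 3.4, 5.11, 3.74 and 6.34. It was the 1 of 20 detected cell cycle genes past 2-fold. Their median was -0.08 with 12 below 0, and Cdt1 was 1.52-fold lower.

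**Figure D3:**
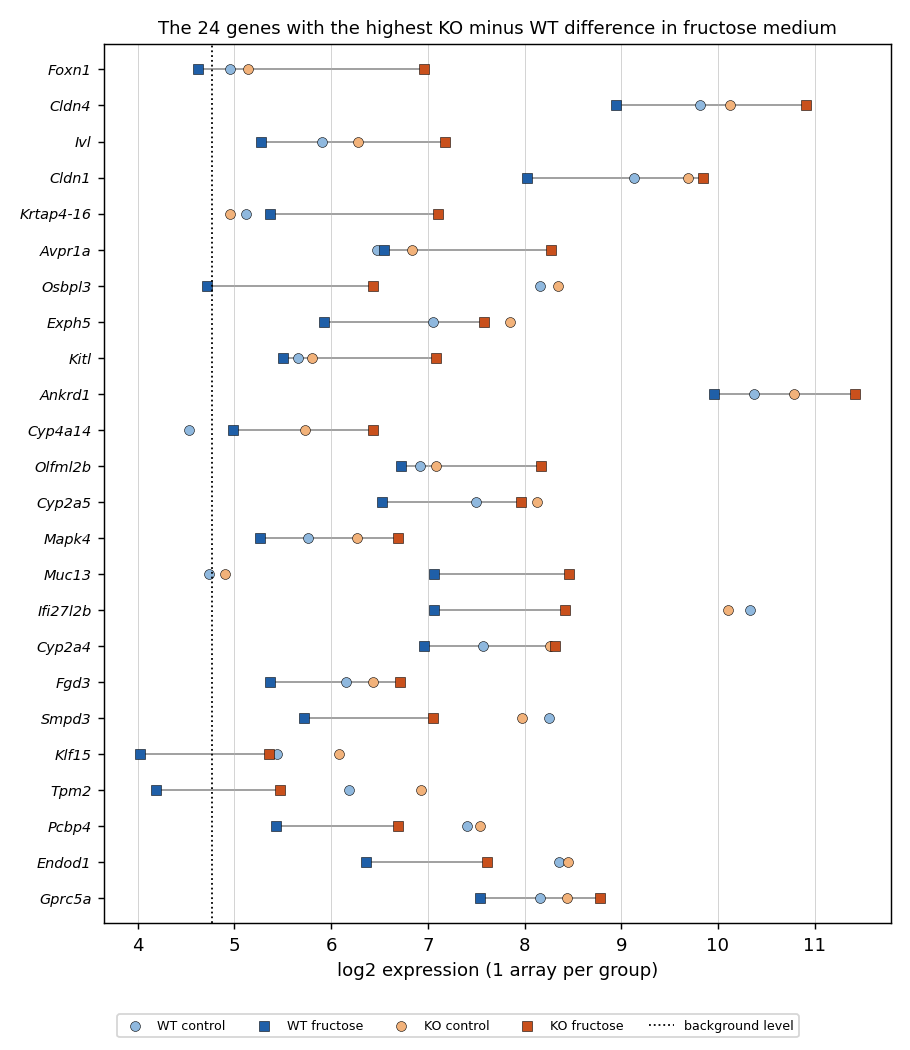
Log2 expression (x axis) on each of the 4 arrays for the 24 genes with the highest KO minus WT difference in fructose medium, from Foxn1 (2.34) at the top; circles are control and squares fructose medium, blue WT and orange KO, with grey bars joining the 2 fructose arrays and a dotted line at the background of 4.76. In rows such as Cldn1, Osbpl3 and Smpd3 the dark blue square (WT with fructose) is the leftmost point, and in Foxn1, Avpr1a and Kitl the dark orange square (KO with fructose) stands alone to the right.

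**Figure D4:**
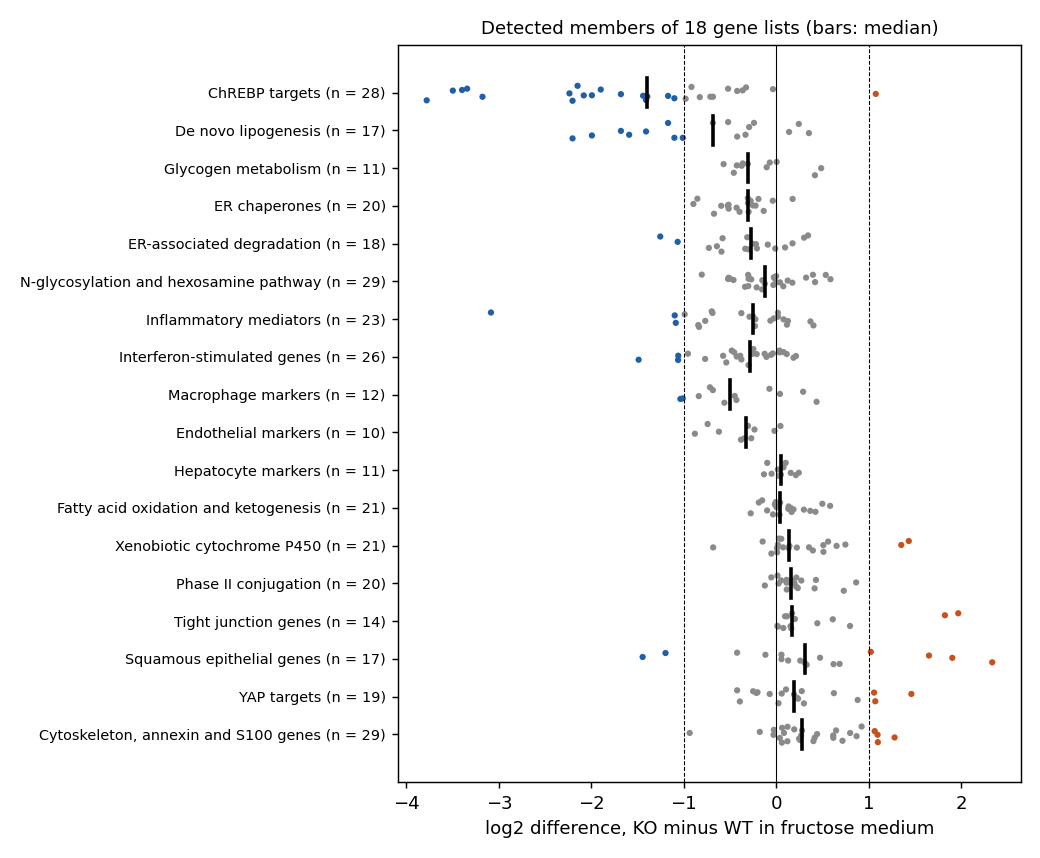
Log2 difference, KO minus WT in fructose medium (x axis), of each detected member of 18 gene lists; every point is 1 gene, black bars are list medians, dashed lines mark 2-fold, and blue and orange points lie past it. ChREBP targets (median -1.40) and lipogenesis genes (-0.69) spread far to the left, ER, macrophage and interferon lists lie slightly left of 0, and the cytoskeleton list (0.28) slightly right.

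By the order of RefSeq genes on the chromosome, Cldn4 and Cldn3 are close neighbours of Mlxipl. Of the 10 nearest detected genes on each side, 1 (Cldn4) was past 2-fold and 3 past 1.5-fold, all 3 higher in KO: Cldn4 (1.97), Cldn3 (0.61) and Hspb1 (0.59). Over all detected genes 0.739% were at least 2-fold lower and 0.543% higher, and 2.86% and 2.45% at 1.5-fold. Counts this small among 20 genes are no measure of enrichment. In control medium Cldn4, Cldn3 and Hspb1 differed by 0.31, -0.13 and 0.12. The Hspb1 difference of 0.59 is a mean of 2 probe sets, and its brightest probe set gave 0.35, under 1.5-fold. The median over the 20 neighbours was 0.17 in fructose medium, and the immediate neighbours Tbl2 and Dnajc30 differed by 0.05 and 0.23.

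The genotypes were also compared in control medium, on the other 2 arrays, which shows how far the fructose-medium differences were present without added fructose. Of 10720 genes detected there, 21 (0.196%) were at least 2-fold lower in KO and 4 (0.0373%) at least 2-fold higher, and 2 (0.0187%) were at least 3-fold lower. Among the 79 genes lower in fructose medium, 70 were above background in control medium, and 20 of these (28.6%) were at least 1.5-fold lower there as well, beside 1.1% of all genes. At 2-fold the number was 9, which is 11.4% of the fructose-medium genes and 42.9% of the control-medium genes. Rgs16, Ifi209, Ifi205, Tnfsf10, Apela, Ampd3, Cd274, Ifit2 and Fcgr1 make up these 9. Measured to the background, 7 of them pass 2-fold in both media: Apela was at least 1.57-fold lower in fructose and at least 1.63-fold in control medium, and Ifi209 at least 1.77-fold in control medium. Among the 58 higher genes, 57 were above background in control medium and 10 (17.5%) were at least 1.5-fold higher there, beside 0.476% of all genes; Cyp39a1 (4.30, 4.22, 5.35 and 5.35) and Cyp4a14 passed 2-fold in both media by their measured differences. Measured to the background neither does: Cyp39a1 was at least 1.5-fold higher in fructose and at least 1.5-fold in control medium, and Cyp4a14 at least 1.96-fold in control medium. The median difference of the 79 genes was -1.28 in fructose and -0.25 in control medium, and that of the 58 genes 1.19 and 0.28. Whether a gene's difference changed between the media cannot be tested with 1 array a group.

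**Figure D5:**
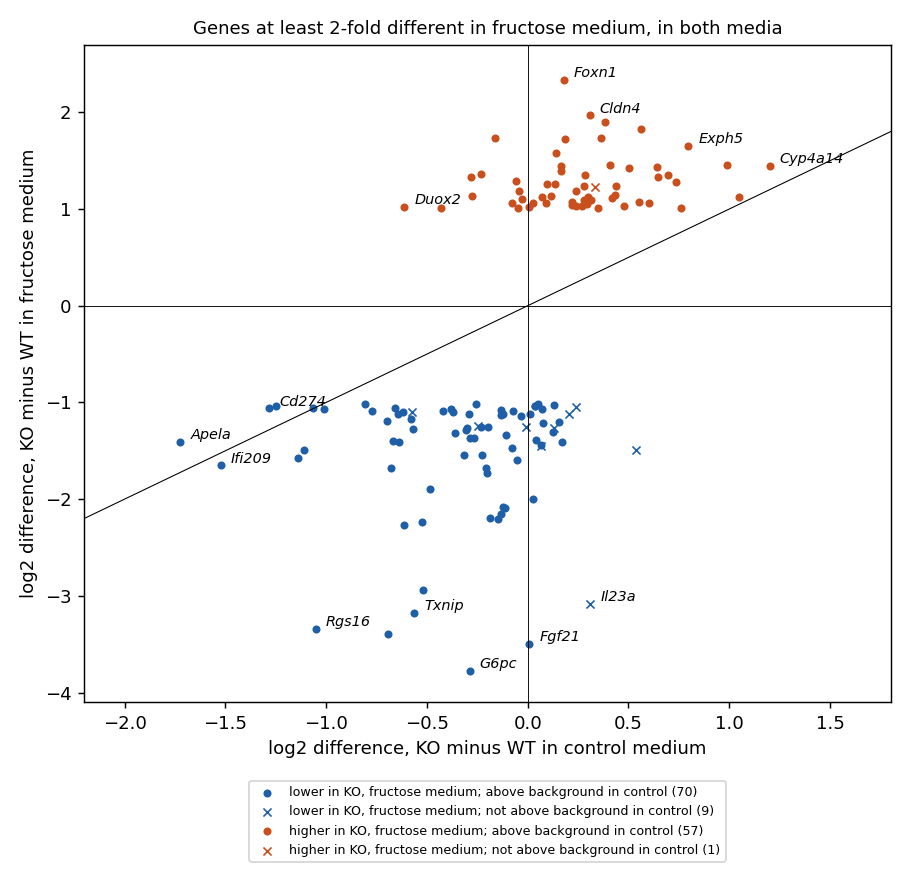
Log2 difference between KO and WT in control medium (x axis) and in fructose medium (y axis) for the 137 genes at least 2-fold different in fructose medium; each point is 1 gene, crosses are genes below background on both control arrays, and the diagonal marks equal differences. Fgf21 and G6pc lie near 0 on the x axis, whereas Apela, Ifi209 and Cd274 lie near the diagonal.

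The boundary at 2-fold separates genes with nearly the same values. Just inside it on the lower side were Srebf1 (-1.01), Timd4 (-1.01) and Mvd (-1.01), and just outside Acod1 (-0.99), Tm6sf2 (-0.98) and Ddhd2 (-0.98). On the higher side Gsta4 (1.01) lay just inside, as did Nme1 (1.01), whose WT fructose reading of 4.24 is below background, and Ptprk (0.99) and Maoa (0.99) just outside.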

How the data were processed

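The values were made by the authors and deposited as log2 expression per probe set; the submitters' processing notes name R 3.4.0 and RMA (robust multi-array average). RMA makes the arrays' distributions alike, so a shift shared by all genes cannot be seen. Per the labels, biotin-labelled cDNA was made from 400 ng of total RNA with an Affymetrix WT Plus kit, and the extraction label speaks of liver RNA. For the array annotation, version and genome build were not given in the sources used here. Of 41345 probe sets, 23521 carry 1 gene symbol, 1814 carry several and 16010 are unnamed here. Symbols of 23328 probe sets were updated by Entrez number through RefSeq (GRCm38.p6). Probe sets of 1 gene were averaged, which gave 22180 genes, and 1082 of these had several probe sets. The array number, 1 per group, limits the precision; no model was fitted and no p-value computed.

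The members and the 67 gene lists (1292 genes, 1191 with a value, the other 101 not analysed here) were chosen with earlier results of these data known. Named genes are Mlxipl, the 30 lowest and 24 highest differences without predicted genes, small RNAs, pseudogenes, receptors of smell or immunoglobulin genes, list members past 1.5-fold, and up to 4 further members of a list; other names were chosen after their values were seen. Counting was tested on simulated data with less scatter than the receptor genes show and with only bright genes shifted. That checks the counting step alone and says nothing of false calls on these arrays. Alternatives covered the scaling, the dim filter, the fold threshold, the probe-set rule, values raised to background, the mean, each list without its most different member, and, added after seeing the data, lists without ChREBP targets. Python 3.11.15, numpy 2.4.6 and pandas 2.3.3 were used.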

Additional observations from a re-analysis of the deposited data

Results flagged for a closer look

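Probe sets with no gene name, which no comparison above uses, also differed between the genotypes. In fructose medium 70 of 4686 detected ones were at least 2-fold lower in KO (1.49%) and 81 at least 2-fold higher (1.73%). In control medium the counts were 45 and 51 of 4634 (0.971% and 1.1%). Both counts in fructose medium were above those in control medium, which is why they are given here; the difference was not tested, and these shares are higher than those of named genes in either medium.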

How the results depend on the processing

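The counts of 79 lower and 58 higher genes stayed within 1.5 times under 7 alternatives (median centring, repeated quantile normalization, loess correction, no dim filter, stricter dim filter, brightest probe set, values raised to background). They became 306 and 262 at 1.5-fold, and 21 and 8 at 3-fold. RMA had already made the arrays' distributions alike, so median centring and repeated quantile normalization could move the counts of 79 and 58 only a little. List medians were compared with a tolerance of 0.1, and single genes with the SD of the receptor genes, 0.18, since no replicate spread exists. Of 65 list medians 21 changed sign under at least 1 alternative, 18 of them with a median under 0.1 from 0, whose direction is therefore unsettled. The other 3 were as follows. Cholangiocyte markers, with only 2 detected members, went from 0.26 to -0.086 without the dim filter and without the most different member, and with the mean pentose phosphate genes went from 0.12 to -0.14 and PPARA targets from 0.14 to -0.059. Without the dim filter ChREBP targets had a median of -1.17 and squamous genes 0.071. With the stricter filter lipogenesis had -0.85, macrophage markers -0.69 and endothelial markers -0.50. Lipogenesis had -1.01 with the brightest probe set and -0.27 without ChREBP targets. The mean was -1.52 for ChREBP targets, -0.82 for lipogenesis, -0.45 for inflammatory mediators, 0.47 for tight junction genes and 0.40 for the cytoskeleton list. The cause of these moves was not tested beyond the fewer or other genes that each setting takes. Of 175 named genes 17 moved by more than the tolerance, 8 with the brightest probe set and 9 with values raised to background, and none changed sign. No array could be left out. No paired analysis was possible because each group has 1 array.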

Other observations

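Some values come from probe sets that stand for several genes and so stayed out of the counts. A probe set shared by Txnip and Gm15441, a gene antisense to it, read 3.60, 4.97, 4.07 and 3.96 in the order WT control, WT fructose, KO control, KO fructose, near background throughout. The probe set shared by Cyp4a10 and Cyp4a31, fatty acid hydroxylases related to Cyp4a14, read 6.54, 6.41, 7.60 and 7.61, so both KO arrays lay above both WT arrays. Of 827 detected probe sets of this kind, 3 (0.363%) were at least 2-fold lower in KO with fructose and 2 (0.242%) higher, beside 0.739% and 0.543% of all detected genes. The Txnip and Gm15441 probe set is among the lower ones only by its measured value, since its KO fructose reading lies below background.

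Of the 137 genes past 2-fold, 3 were measured by more than 1 probe set. For Fabp5 the 4 probe sets differed by -1.30, -0.43, -1.89 and -1.86, and the smallest value belongs to a probe set below background. Glul, glutamine synthetase, had -1.5 on a bright probe set and -0.66 on one below background, so the mean of -1.08 understates the bright one. The 2 probe sets of Vim gave 0.92 and 1.27.

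Duox2, a hydrogen peroxide-producing oxidase, read 6.97, 6.62, 6.35 and 7.65: KO was higher than WT in fructose medium (1.02) and lower in control medium (-0.61). It was picked after its values were seen, and the difference between media was not tested.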
